A study of Canis lupus familiaris with 28 samples.

Results

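The genes described here are the Janus kinases JAK1, JAK2, JAK3 and TYK2, the adaptor proteins SH2B1, SH2B2 and SH2B3, and the feedback inhibitors SOCS1, SOCS3 and CISH. They were chosen by name, and every probe carrying one of these gene names was taken. Of the 10 genes, 7 had at least 1 probe of that name, with 13 probes in all among the 43603 probes and 34382 gene names of the array. JAK3, TYK2 and SH2B2 were not analysed here. All 13 probes passed the filter on signal, which left 30202 probes, and on all 28 arrays the Cy5 signal of each stood well above background.

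Peripheral blood RNA came from 20 client-owned dogs with atopic dermatitis (AD), a chronic itchy allergic skin disease, and from 8 healthy dogs. Each dog had 1 two-color Agilent canine array, with the dog's RNA in Cy5 and a common reference in Cy3. The reference was a pool of RNA from 13 other healthy dogs and was the same on every array, without a dye swap. The labels call the material whole blood, and the dogs were of both sexes and of several breeds, with no age, treatment or breed given per array.

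Cytokines that bind receptors without a kinase of their own signal through Janus kinases, which sit on the receptor tails and phosphorylate STAT transcription factors. SH2B adaptors bind activated JAK2 and other tyrosine kinases: SH2B1 is known as an enhancer of JAK2 activity and SH2B3, also called LNK, as a brake on it in blood cell precursors. SOCS1, SOCS3 and CISH are transcribed in response to STATs and in turn inhibit the receptors or the kinases, so that they form a negative feedback loop. In blood, JAK1 serves most interleukin and interferon receptors, and JAK2 serves those for erythropoietin, growth hormone and the IL-3 group.

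The member probes differed widely in base composition. All probes are 60 bases long. The 6 probes printed here are those on which the SH2B1 and SOCS results turn, with a JAK1 probe of low GC content for contrast. Capitals mark G and C, the sequences are those of the array design files, and coordinates are in CanFam3.1 as the files give them.
SOCS3, A_11_P0000021527: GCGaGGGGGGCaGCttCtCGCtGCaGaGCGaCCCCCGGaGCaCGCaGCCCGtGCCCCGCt
SOCS1, A_11_P0000033139: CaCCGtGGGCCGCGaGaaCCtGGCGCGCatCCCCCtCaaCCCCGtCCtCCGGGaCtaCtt
CISH, A_11_P0000028807: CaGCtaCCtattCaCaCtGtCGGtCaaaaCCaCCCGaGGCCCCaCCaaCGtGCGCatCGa
SH2B1, A_11_P180403: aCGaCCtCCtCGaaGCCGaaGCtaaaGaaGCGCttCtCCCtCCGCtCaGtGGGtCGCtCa
SH2B1, A_11_P096776: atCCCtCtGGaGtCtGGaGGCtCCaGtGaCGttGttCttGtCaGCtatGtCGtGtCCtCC
JAK1, A_11_P176723: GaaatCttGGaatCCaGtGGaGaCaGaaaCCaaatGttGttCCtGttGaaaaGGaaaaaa

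The SOCS3 probe, at chr9:2859556-2859615, holds 46 G or C bases, and 0.457% of the tested probes hold as many or more. The SOCS1 probe (chr6:31511473-31511532) holds 42 and the CISH probe (chr20:38766182-38766241) holds 35. The SH2B1 probes printed above lie at chr6:18374558-18374617, with 36, and at chr6:18379388-18379447, with 33. The median over all tested probes was 27. The brightest JAK1 probe, A_11_P123596 at chr5:45408496-45408555, holds 21, and the single JAK2 probe (chr1:93435694-93435753) and the brighter SH2B3 probe (chr26:9070813-9070872) hold 26 each. The files give no exon or reading frame for these positions, and no annotation of this build was used here.

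Values are log2 ratios of dog to common reference, centered on each array's median, so that 0 is the median probe and a difference of 1 is a doubling. Where a gene had several probes, the one with the highest mean signal stood for it. The 20 AD and the 8 healthy dogs were set against each other in limma over all 30202 probes, with Benjamini-Hochberg adjustment, at the adjusted threshold of 0.085 used in the study. Because whole blood is a mixture, fewer cells of a type and less RNA per cell cannot be told apart. No slide or scan day held dogs of both groups, so group and slide cannot be told apart either.

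None of the 7 member genes passed the adjusted threshold, and neither did any of the 30202 probes (0%; smallest adjusted p = 0.490, limma). At an unadjusted p under 0.05, 1847 probes (6.12%) passed, and 1348 (4.46%) of the probes tested passed with a lower level in AD dogs. Among the members 1 of 7 genes, SH2B1, was lower in AD dogs at that limit and none was higher. The study had already listed SH2B1 as lower in AD dogs from these same samples, so this count is not independent of that list. Of the 7 log2 fold changes, 6 were positive, with a median of 0.075 beside -0.0097 over all probes tested, of which 47.9% were positive. Over all 13 member probes 8 were positive, with a median of 0.0079, and from the Cy5 signal alone 3 of the 7 genes were positive. After centering by probe GC content, as described below for the SOCS genes, 4 of the 7 were positive, with a median of 0.024.

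**Figure D1:**
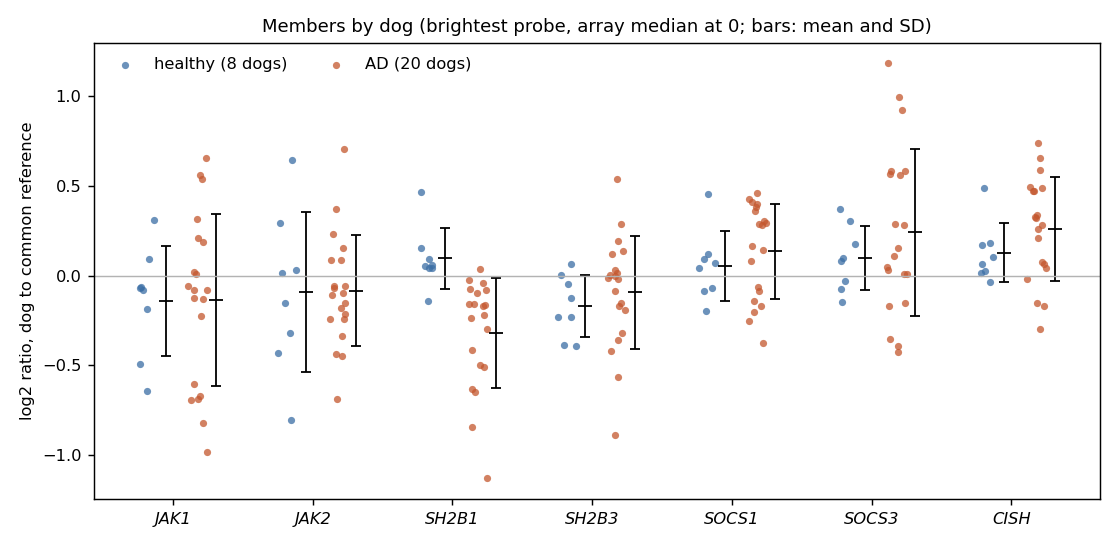
Log2 ratio of dog to common reference (y axis) for the brightest probe of each of the 7 member genes (x axis), 1 point for each of 8 healthy and 20 AD dogs, with bars for mean and SD. For SH2B1 all 20 AD dogs lie below the healthy mean and 14 below the lowest healthy dog, and for all 7 genes the ranges of the groups overlap.

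JAK1, the kinase shared by the common gamma chain, gp130 and interferon receptors, gave the brightest signal among its own 5 probes at A_11_P123596, with a processed dog signal of 10460 to 26320 in AD and 11740 to 18650 in healthy dogs. Its log2 ratio ran from -0.99 to 0.66 in AD dogs, with a median of -0.079. In healthy dogs it ran from -0.65 to 0.31, with a median of -0.074. The medians nearly coincided, and AD dogs lay both below the lowest (5 dogs) and above the highest healthy dog (4 dogs). The log2 fold change was 0.0079 (SE 0.18, limma adjusted p = 0.995). The other 4 JAK1 probes gave log2 fold changes of -0.16, 0.091, -0.0081 and -0.092, with the smallest unadjusted p at 0.283 in limma.

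The 5 JAK1 probes are spread along 1 transcript and did not vary as 1 measurement. Over the 20 AD dogs the 10 probe pairs had Pearson's r from 0.0982 to 0.831, and 7 of the 10 passed an adjusted p of 0.05 in a permutation test (Benjamini-Hochberg over 24 probe pairs of 3 genes in both groups). By Spearman's rho, 4 pairs passed. The lowest r was between the brightest probe and A_11_P166518 (rho 0.00602), which starts at base 2992 of the target against 5131. The highest was between A_11_P166518 and A_11_P212008 (r = 0.831, rho = 0.854, adjusted permutation p = 0.00024 for both), which start at bases 2992 and 2486 and hold 27 G or C bases each. That pair kept r = 0.862 with slide means removed, 0.809 on scan day 4 and 0.938 on scan day 5, and 0.830 after centering by probe GC content. The brightest probe, which starts farthest along the target, passed with 1 of the other 4, A_11_P176723 (r = 0.623), and r of that pair was 0.226 after centering by GC content. In the 8 healthy dogs r of the 10 JAK1 pairs ran from 0.114 to 0.908, and 3 of the 10 passed in the exact permutation test. In both groups the pair with the lowest r included the brightest probe.

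JAK2, the kinase of the erythropoietin and growth hormone receptors, was read by 1 probe with a processed dog signal of 888.4 to 2578 in AD and 843.7 to 2059 in healthy dogs. Its log2 ratio ran from -0.69 to 0.71 in AD dogs (median -0.10) and from -0.81 to 0.65 in healthy dogs (median -0.069). The 2 ranges covered nearly the same span, and 1 AD dog lay above the highest healthy dog. The log2 fold change was 0.0068 (SE 0.15, limma adjusted p = 0.995).

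SH2B1, the adaptor that enhances JAK2 activity, was lower in AD dogs by its brighter named probe, A_11_P180403. The log2 ratio ran from -1.13 to 0.035 in AD dogs, with a median of -0.19 and a mean of -0.32 ± 0.31 (SD, n = 20). In healthy dogs it ran from -0.14 to 0.47, with a median of 0.057 and a mean of 0.097 ± 0.17 (SD, n = 8). All 20 AD dogs were below the healthy mean and 14 were below the lowest healthy dog. The log2 fold change was -0.42 (SE 0.12, unadjusted p = 0.0021, adjusted p = 0.490 in limma). Without the healthy dog with the highest value, dog 5, it was -0.36. The difference exceeded the SD within either group, and its p did not pass the adjustment over all probes.

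The second SH2B1 probe, A_11_P096776, was dim, with a processed dog signal of 80.84 to 251.9 in AD and 67.74 to 170.1 in healthy dogs. Its log2 ratio ran from -0.58 to 1.39 in AD dogs (median 0.089) and from -0.090 to 1.05 in healthy dogs (median 0.38). The groups overlapped over most of the range, and the log2 fold change was -0.25 (SE 0.20, unadjusted p = 0.229 in limma). A further probe, A_11_P183193, carries a RefSeq accession as its gene name and is described in the files as SH2B1; it falls outside the rule and was added after its values were seen. It gave a processed dog signal of 2812 to 7249 in AD dogs and a log2 fold change of -0.088 (SE 0.13, unadjusted p = 0.517 in limma), and for 11 of the 20 dogs with AD the value was under the healthy mean. Of the 3 probes, 1 passed an unadjusted p of 0.05, and the mean of both named probes gave -0.33 (unadjusted p = 0.0263). Over the AD dogs r was 0.477 between the named probes (adjusted permutation p = 0.0725), and the further probe had r of 0.675 and 0.693 with them. In the 8 healthy dogs r of the named probes was -0.127 (exact adjusted permutation p = 0.790). After centering by probe GC content r of the named probes was 0.682 in AD dogs, which passed (adjusted permutation p = 0.00752), and 0.576 in healthy dogs, which did not (exact permutation, adjusted p = 0.267).

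**Figure D2:**
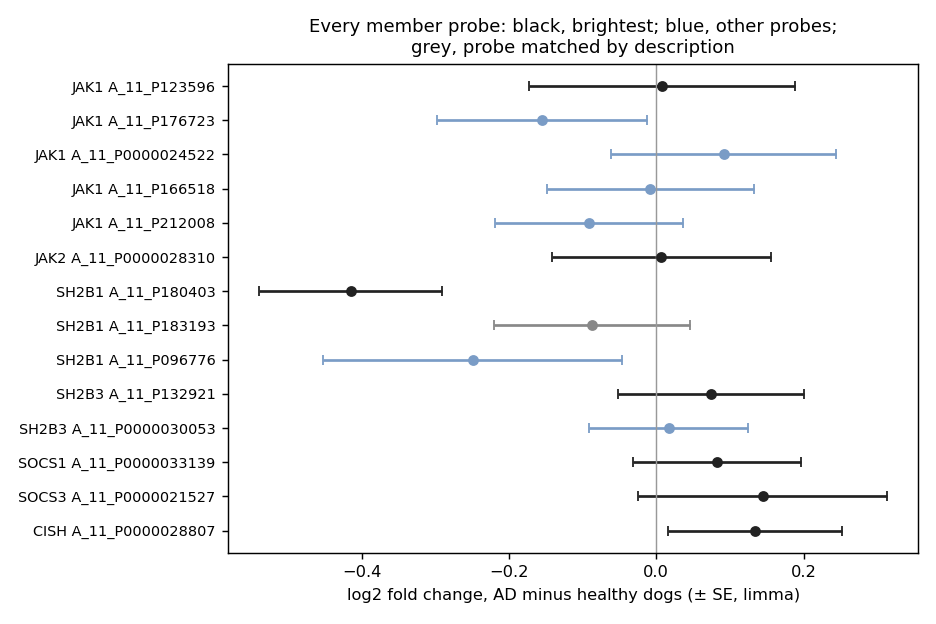
Log2 fold change of AD minus healthy dogs (x axis, with SE from limma) for the 13 probes named for a member and the SH2B1 probe matched by its description (y axis). The SH2B1 probe A_11_P180403 lies at -0.42, and the SH2B1 probe matched by description at -0.088.

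The 2 channels of the SH2B1 probe A_11_P180403 were also read apart, each quantile normalized between arrays. In the dog's channel its log2 signal was 12.1 ± 0.343 (SD, n = 20) in AD and 12.9 ± 0.259 (SD, n = 8) in healthy dogs, a log2 fold change of -0.77 (adjusted p = 0.0021 in limma). There 1251 of all probes (4.14%) passed, and SH2B1 was the 1 member gene of 7 that did. In the common reference channel, where the RNA was the same on every array, the probe was also lower on the arrays of AD dogs, by a log2 difference of -0.32 (adjusted p = 0.0118 in limma), and 39.1% of all probes passed there. With array weights, 1009 probes (3.34%) passed in the log2 ratio, SH2B1 among them at -0.40 (adjusted p = 0.0524 in limma). The dim probe A_11_P096776 moved the other way in both channels, with log2 differences of 0.57 in the dog's channel and 1.09 in the reference channel.

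**Figure D3:**
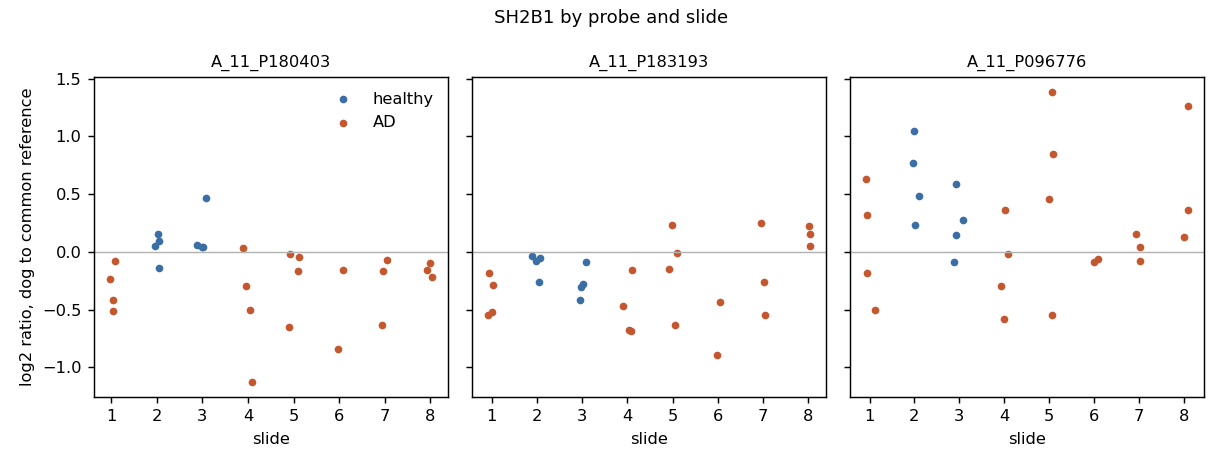
Log2 ratio of dog to common reference (y axis) for the 3 SH2B1 probes, 1 panel each, by slide (x axis), 1 point per dog. For A_11_P180403 the 2 slides of healthy dogs have means of 0.040 and 0.15, and the 6 slides of AD dogs have means from -0.50 to -0.16.

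By slide, the mean log2 ratio of A_11_P180403 was 0.040 and 0.15 on the slides of healthy dogs and -0.31, -0.47, -0.22, -0.50, -0.29 and -0.16 on those of AD dogs. All 6 slides of AD dogs were below both slides of healthy dogs. A random block for slide left the log2 fold change at -0.42 (unadjusted p = 0.0070, adjusted p = 0.996 in limma). Leaving out slide 3, which held 4 of the healthy dogs, gave -0.36 (unadjusted p = 0.0430 in limma).

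SH2B3, the LNK adaptor that restrains JAK2 signaling, was read by 2 probes. The brighter, A_11_P132921, had a log2 ratio of -0.89 to 0.54 in AD dogs (median -0.016) and -0.39 to 0.067 in healthy dogs (median -0.18). By this probe AD dogs were spread more widely, with 3 below the lowest and 5 above the highest healthy dog. Its log2 fold change was 0.075 (SE 0.13, adjusted p = 0.925) and that of the other probe was 0.017 (SE 0.11, adjusted p = 0.986, limma). By that other probe the SD was 0.23 in AD and 0.21 in healthy dogs, with 3 AD dogs below the lowest and 0 above the highest healthy dog. The 2 probes had r = 0.365 over the AD dogs and 0.537 over the healthy dogs, and neither passed in the permutation tests.

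SOCS1, which binds and blocks the kinases directly, had a log2 ratio of -0.37 to 0.46 in AD dogs (median 0.22) and -0.20 to 0.46 in healthy dogs (median 0.055). The ranges overlapped, and the log2 fold change was 0.083 (SE 0.11, adjusted p = 0.907 in limma). SOCS3, the inhibitor of gp130 and related receptors, ran from -0.43 to 1.18 in AD dogs (median 0.13) and from -0.15 to 0.37 in healthy dogs (median 0.092). Here 7 AD dogs were above the highest and 5 below the lowest healthy dog, and the log2 fold change was 0.14 (SE 0.17, adjusted p = 0.888 in limma). CISH, a STAT5 target that inhibits IL-2 and erythropoietin receptor signaling, ran from -0.30 to 0.74 in AD dogs (median 0.30) and from -0.033 to 0.49 in healthy dogs (median 0.084). It was above the healthy mean in 13 of 20 AD dogs, with a log2 fold change of 0.13 (SE 0.12, adjusted p = 0.872 in limma). After centering by probe GC content the log2 fold changes of SOCS1 and SOCS3 turned to -0.070 and -0.057, and their p did not pass in either form.

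In AD dogs, with values centered on the array median, the 3 SOCS family genes varied together. Values after centering by probe GC content are given below. In the 20 AD dogs r was 0.863 between SOCS1 and CISH (rho = 0.784), 0.796 between SOCS1 and SOCS3 (rho = 0.827) and 0.733 between SOCS3 and CISH (rho = 0.794). The adjusted permutation p of these r was 0.00042, 0.00063 and 0.00378, over 42 tests of 21 gene pairs in both groups, and that of rho was 0.00084 for each. The first r rested on the smallest unadjusted p the permutations can give, 1e-05. Without the 2 dogs farthest from the median of the first gene r was 0.810, 0.773 and 0.831, and with slide means removed 0.863, 0.823 and 0.750. Within the 6 AD dogs of scan day 4 it was 0.980, 0.897 and 0.927, and within the 6 of scan day 5 it was 0.894, 0.938 and 0.713. In the 8 healthy dogs r was 0.769, 0.189 and 0.330, and none of the 3 passed in the exact permutation test. Whether the groups differ in this was not tested. High r was not particular to these pairs. By r with SOCS1 over the AD dogs, CISH stood at place 7 and SOCS3 at place 126 of 10109 genes with a symbol. By r with CISH, SOCS1 stood at place 47 and SOCS3 at place 844. By r with SOCS3, SOCS1 stood at place 411 and CISH at place 947, where 9.37% of the genes had an r at least as high. From the Cy5 signal alone, SOCS1 and CISH still passed in AD dogs, while SOCS1 with SOCS3 (r = 0.469) and SOCS3 with CISH (r = 0.406) did not.

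JAK1 ran against all 3 SOCS genes by its brightest probe. In AD dogs r was -0.685 with SOCS1, -0.644 with SOCS3 and -0.690 with CISH (rho -0.702, -0.635 and -0.663), with adjusted permutation p of 0.00742, 0.0121 and 0.00742. Without the 2 dogs farthest from the JAK1 median r was -0.612, -0.554 and -0.690, and the value with SOCS3 no longer passed. It was -0.764, -0.742 and -0.745 with slide means removed, between -0.824 and -0.707 on scan day 4 and between -0.892 and -0.715 on scan day 5. On neither scan day alone did any of the 3 pass. With another background correction (normexp, then loess) r was -0.522, -0.512 and -0.468 and did not pass. From the Cy5 signal alone r was -0.825, -0.564 and -0.597, and only the first, with SOCS1, passed. With the mean of all 5 JAK1 probes in place of the brightest, r was -0.360, -0.298 and -0.354 and did not pass. By r with the brightest JAK1 probe, from highest to lowest, SOCS1, SOCS3 and CISH stood at places 9657, 9331 and 9696 of 10109 genes with a symbol.

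**Figure D4:**
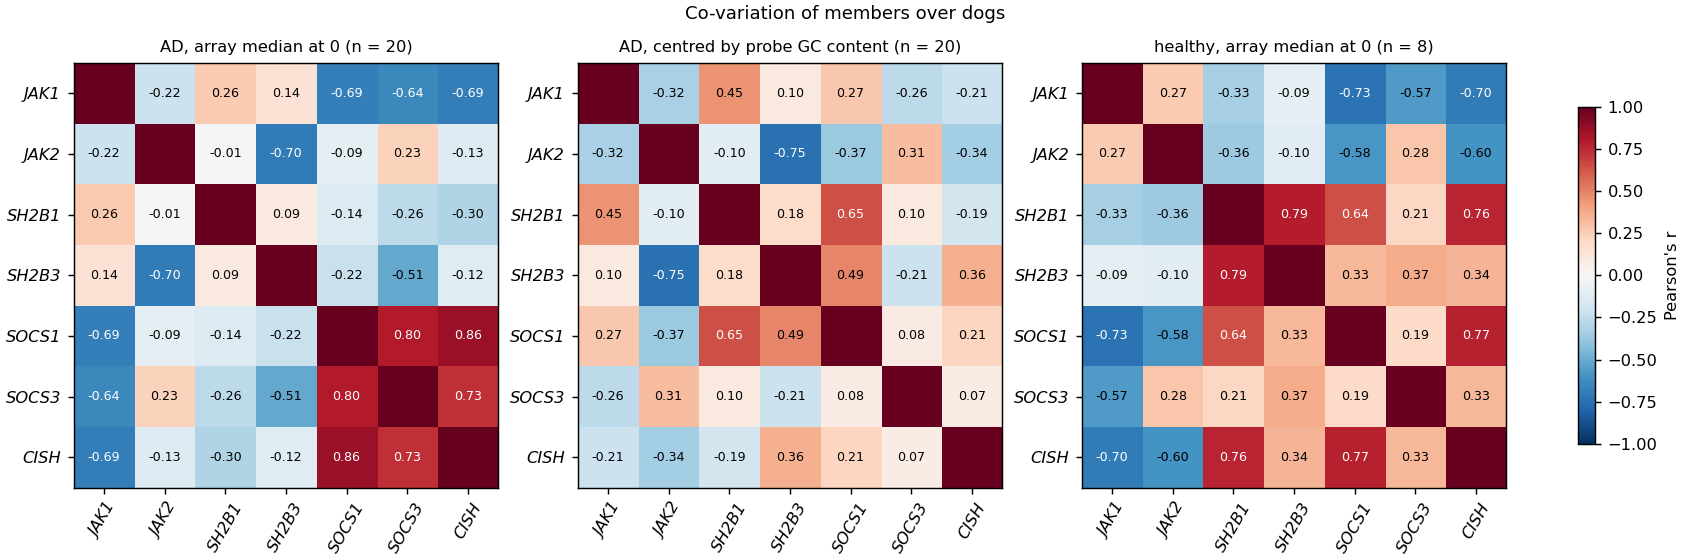
Pearson's r of log2 ratios between the 7 member genes over dogs, as color and number, for AD dogs centered on the array median (left), the same dogs centered by probe GC content (middle) and healthy dogs (right). The block of SOCS1, SOCS3 and CISH at 0.733 to 0.863 on the left stands at 0.0744 to 0.214 in the middle, while JAK2 and SH2B3 stand at -0.696 and -0.749.

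The log2 ratio was also set against probe base composition. For each array a straight line was fitted to the log2 ratio of all 30202 tested probes against the number of G or C bases, and its slope was given per 10 bases. The slope ran from -0.17 to 0.60 in AD dogs (median 0.27) and from -0.099 to 0.47 in healthy dogs (median 0.11). Over the 20 AD dogs it had r of 0.841 with SOCS1, 0.778 with SOCS3, 0.897 with CISH and -0.844 with JAK1 (rho 0.850, 0.835, 0.896 and -0.794). The adjusted permutation p of r was 0.000467, 0.00175, 0.00035 and 0.00035, over 70 relations of 7 genes with 10 measures of the array or the blood. Without the 2 arrays of most extreme slope r was 0.809, 0.699, 0.877 and -0.790, and with slide means removed 0.897, 0.788, 0.929 and -0.846. It ran from 0.784 to 0.895 for the SOCS genes on scan day 4 and from 0.802 to 0.969 on scan day 5, with JAK1 at -0.866 and -0.896. JAK2, SH2B1 and SH2B3 had r of 0.012, -0.357 and -0.268 with the slope, which did not pass.

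**Figure D5:**
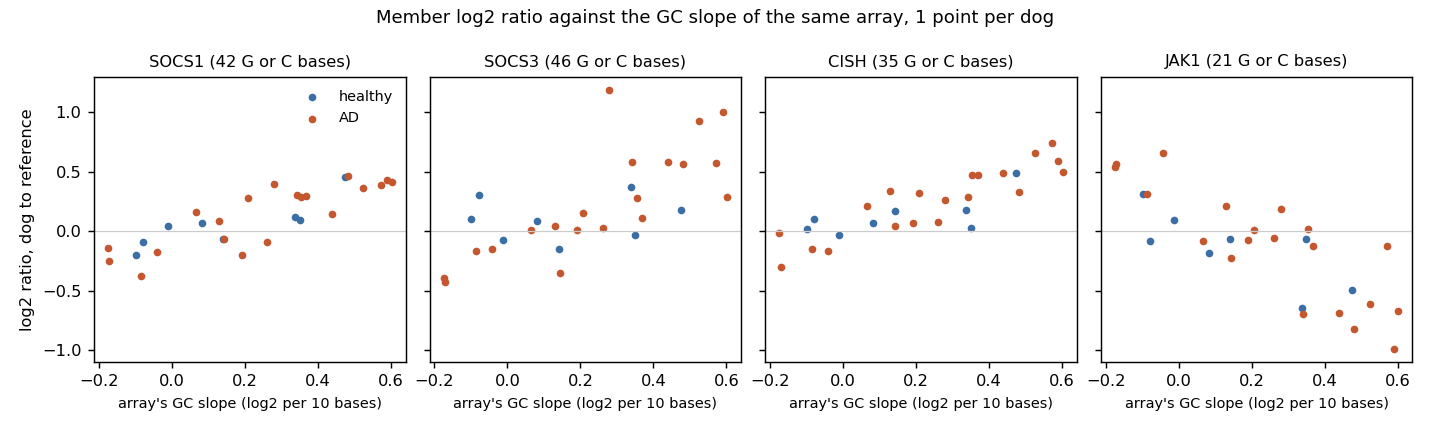
Log2 ratio of dog to common reference (y axis) against the GC slope of the same array (x axis, change in log2 ratio per 10 G or C bases of the probe), 1 panel each for SOCS1, SOCS3, CISH and JAK1, 1 point per dog. The SOCS genes rise with the slope in the AD dogs (r of 0.778 to 0.897) and JAK1 falls (r = -0.844).

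When each array was centered within bins of probes of like GC content, a step chosen after these values were seen, the SOCS pairs no longer passed in AD dogs. Over the 20 AD dogs r was then 0.214 between SOCS1 and CISH, 0.0818 between SOCS1 and SOCS3, and 0.0744 between SOCS3 and CISH. JAK1 had r of 0.271 with SOCS1, -0.261 with SOCS3 and -0.212 with CISH. In the 8 healthy dogs the SOCS pairs stood at 0.714, 0.617 and 0.672 under the same centering, and none of the 3 passed in the exact permutation test (adjusted p of 0.263, 0.317 and 0.263). The number of AD gene pairs that passed was 7 of 21 with the array median and 2 of 21 with GC centering. One of the latter, JAK2 with SH2B3, was among the 7. The other, SH2B1 with SOCS1, stood at r = -0.140 with the array median and at 0.645 with GC centering (adjusted permutation p = 0.0342). In healthy dogs that pair went from 0.643 to 0.953 (exact permutation, adjusted p = 0.0151). After this centering the array slope had r of -0.724 with SH2B1, -0.572 with SOCS1 and -0.719 with JAK1 over the AD dogs. With SOCS3, CISH, JAK2 and SH2B3 it had r of 0.0051, 0.385, 0.086 and -0.199. GC centering thus did not free every member of the slope, and its part in the SH2B1 and SOCS1 pair was not tested.

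Of the marker lists, 1 passed an adjusted p of 0.05 with the array slope itself. The mean log2 ratio of 4 red cell markers had r = 0.788 with it over the AD dogs (rho = 0.805, adjusted permutation p = 0.00036 for both over 9 relations), 0.704 without the 2 arrays of most extreme slope, 0.740 with slide means removed, and 0.781 and 0.836 on scan days 4 and 5. The same list had r of 0.626 with SOCS1, 0.736 with SOCS3 and 0.665 with CISH (rho 0.680, 0.777 and 0.674, adjusted permutation p of 0.0326, 0.00294 and 0.0179 for r). Without the 2 dogs of most extreme marker level r was 0.709, 0.766 and 0.677, with slide means removed 0.664, 0.692 and 0.675, on scan day 4 0.472, 0.655 and 0.636, and on scan day 5 0.897, 0.913 and 0.734. In the healthy dogs r of the red cell list was 0.15 with SOCS1, -0.46 with SOCS3 and -0.13 with CISH. With the gene but not the marker list centered by GC content, r in AD dogs was -0.734 with SOCS1, 0.00697 with SOCS3 and 0.117 with CISH. One other marker relation passed by r among the 70, that of the neutrophil list with JAK1 (r = -0.612, adjusted permutation p = 0.0372), while by rho it did not (rho = -0.559, adjusted permutation p = 0.0836). It stood at -0.530 without the 2 dogs of most extreme marker level, at -0.599 with slide means removed, at -0.873 and -0.829 on scan days 4 and 5 and at -0.623 after GC centering. In the healthy dogs r of the neutrophil list with JAK1 was -0.164. Whether the groups differ in these marker relations was not tested. The summed dog signal of the red cell markers ran from 62370 to 606300 in AD and from 42130 to 410300 in healthy dogs. The part of red cell RNA, of RNA quality and of probe base composition in the SOCS values was not tested.

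JAK2, the kinase, and SH2B3, its adaptor brake, varied in opposite directions in AD dogs when SH2B3 was read by its brighter probe. Over the 20 dogs r was -0.696 (rho = -0.741, adjusted permutation p of 0.00742 and 0.00357), and -0.787 without the 2 dogs farthest from the JAK2 median. It was -0.738 with slide means removed, -0.966 on scan day 4, -0.793 on scan day 5 and -0.749 after GC centering, with both probes at 26 G or C bases. From the Cy5 signal alone r was -0.212 and did not pass. By the other SH2B3 probe r was 0.0027, and by the mean of both probes it was -0.481, and neither passed in the permutation test. In the 8 healthy dogs r was -0.103. By r with JAK2 over the AD dogs, from highest to lowest, SH2B3 stood at place 10107 of 10109 genes with a symbol.

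In the healthy dogs 1 of 21 gene pairs passed in the exact permutation test, SH2B1 with SH2B3 (r = 0.786, rho = 0.905, adjusted p = 0.0126 and 0.0240). In the AD dogs that pair stood at 0.0949, and in healthy dogs it did not pass without the 2 dogs farthest from the SH2B1 median (r = 0.716) or after GC centering (r = 0.611).

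For each member, the 3 genes most like it were found by the r of their brightest probes over the 20 AD dogs, among 10109 tested genes with a RefSeq symbol. They are a description, with no test. SH2B1 stood nearest to PEX26 (r = 0.987), DUOX1 (0.974) and GDPD3 (0.973), and in healthy dogs these had r of 0.956, 0.953 and 0.954. With the other SH2B1 probes the same SH2B1 probe had lower r, 0.477 and 0.675 in AD and -0.127 and -0.124 in healthy dogs. PEX26 and GDPD3 are also on the study's list of genes lower in AD dogs. JAK1 by its brightest probe stood nearest to UBA2 (0.966), NSUN2 (0.964) and MSH6 (0.961), whose probes hold 24, 21 and 21 G or C bases. JAK2 stood nearest to RAPGEF6 (0.876), ARRDC3 (0.776) and ARHGAP26 (0.769). SH2B3 stood nearest to COPG1 (0.891), MON1A (0.878) and CCDC22 (0.860), with 0.379, 0.393 and 0.0278 in healthy dogs. The SOCS genes each had 3 nearest genes with r from 0.892 to 0.915, for SOCS1 PRPF40B, HIPK2 and GDPD5, for SOCS3 MSX2, TIAM1 and LAMB2, and for CISH ZNF580, TLE6 and IRF2BP1. The probes of these 9 genes hold 31 to 41 G or C bases. After GC centering none of the 9 was again among the nearest genes of its SOCS gene, and the 3 nearest genes of SH2B1 were replaced too, by ZBTB7B, TTYH2 and KCNA5. Of these, TTYH2 is on the study's list of genes lower in AD dogs. UBA2, RAPGEF6 and COPG1 stayed first for JAK1, JAK2 and SH2B3.

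Genes around the members in the pathway did not pass the adjusted threshold either. Of 5 STAT factors tested, 0 passed an unadjusted p of 0.05 in limma, with STAT2 at a log2 fold change of -0.26 (p = 0.194) and STAT6, the IL-4 and IL-13 factor, at 0.22 (p = 0.256) nearest. Of 19 receptors that signal through JAKs, 1 was lower and 0 were higher: IL6ST, the gp130 chain shared by the IL-6 family, ran from -1.01 to -0.060 in AD (median -0.25) and from -0.42 to 0.26 in healthy dogs (median -0.092), a log2 fold change of -0.32 (SE 0.13, p = 0.0213, adjusted p = 0.643 in limma). Of 13 other brakes, 1 was lower: PIAS1, a SUMO ligase, ran from -0.95 to 0.25 in AD (median -0.19) and from -0.21 to 0.35 in healthy dogs (median 0.15), a log2 fold change of -0.41 (SE 0.13, p = 0.0027, adjusted p = 0.490 in limma). IL6ST had 4 and PIAS1 had 5 probes tested, and only the brightest of each is given here. Of 15 STAT target genes 0 passed, with FOS (0.41, p = 0.0674) and IRF1 (0.31, p = 0.0899) nearest.

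By median log2 fold change the lists stood at -0.033 for the STAT factors, -0.0054 for the receptors, -0.022 for the other brakes and 0.14 for the STAT targets, beside -0.0097 over all probes. Of the 15 STAT targets, 14 had a positive log2 fold change, 12 of them after GC centering and 12 in the dog's channel, and 47.9% of all probes were positive. The counts at an unadjusted p under 0.05, 1 of 7 members and 2 of these genes, stand beside 6.12% of all probes. SH2B1 and PIAS1 were both listed by the study as lower in AD dogs from these same samples, so the counts are not independent of that list. The study also reported both as lower in AD dogs by real-time PCR.

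The arrays of AD dogs had 51.7% to 87.5% of probes well above background in Cy5 and those of healthy dogs 84.3% to 90.3%. The 6 AD arrays of scan day 5 had at most 63.2%. Over the AD dogs this share had r between -0.443 (SOCS3) and 0.460 (SH2B3) with the members, which did not pass in the permutation test. Marker genes of T cells, monocytes, neutrophils, red cells and platelets that were tested were all well above background in every dog, as were 4 of 6 B cell markers, and none of the 8 marker lists held a gene at an unadjusted p under 0.05. Mean log2 ratios of the red cell list ran from -1.99 to 1.48 in AD and from -1.82 to 1.26 in healthy dogs, and those of the neutrophil list from -0.25 to 1.17 and from -0.27 to 0.49.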

How the data were processed

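Two-color canine arrays measured blood RNA of 20 AD and 8 healthy dogs, grouped by the labels' disease state, on 8 slides scanned on 5 days. The authors extracted signals with Agilent Feature Extraction, version 10.7.3.1 per the labels. The deposited intensity values are processed signals of both channels after the background subtraction and dye normalization named in the file headers. The authors' table of log10 ratios repeats the ratio of each scanner file within 0.001 and served as an alternative. The deposited marks, read as other values, flag spots that are outliers or well above background.

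Spots were averaged per probe, outlier marks set to missing, and the log2 ratio of dog to reference centered on the array median. Probes were kept where they were well above background on some array and at least 1 of 4 medians (2 channels, 2 groups) exceeded 100, and where at least 0.5 of each group's arrays had a value. R 4.3.3 with limma 3.58.1 (lmFit, eBayes) compared the groups, with Benjamini-Hochberg adjustment. Fits were tested on simulated data. Correlations used 100000 permutations in AD dogs (two-sided) and exact permutation in healthy dogs, in Python 3.11.15 with numpy 2.4.6. For GC centering, each array's median within 17 bins of probe GC content, of at least 68 probes each, was subtracted. Array names were matched to symbols of the RefSeq gene table.

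The members and lists were chosen with earlier results of these data known. Named genes were all members, the 3 genes most alike to each, and pathway genes at an unadjusted p under 0.05 or, where a list had none, its 2 smallest. Alternatives varied the filter, outlier marks, background correction (normexp with offset 50, then loess), centering, channel, value table, slide, scan day and dog number, array weights, variance model, probe choice and dogs left out. Arrays give no counts, so the number of dogs limits the precision. Nothing in the labels says that dogs were sampled more than once. Promoter motifs were not analysed here.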

Additional observations from a re-analysis of the deposited data

Results flagged for a closer look

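In the 8 healthy dogs, CISH in dog 5 stood apart at a log2 ratio of 0.488, with the next highest dog at 0.181, a gap of 0.589 of the whole range that passed the 95% limit of Dixon's test for 8 values. About 1 in 20 groups is marked by chance, and 1 of 7 member genes was marked. The same dog was also highest for SH2B1, SH2B3 and SOCS1 and lowest for JAK2 among the healthy dogs, without passing that test, and its array had the highest GC slope of the 8 (0.475 per 10 bases).

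The common reference channel held the same RNA on every array and is the denominator of every log2 ratio here. In it, 5 of the 13 member probes passed the adjusted threshold of 0.085 in limma when AD arrays were set against healthy arrays. The log2 differences were 0.266 for JAK1 probe A_11_P0000024522, -0.32 and 1.09 for SH2B1 probes A_11_P180403 and A_11_P096776, -0.178 for SH2B3 probe A_11_P132921 and -0.308 for SOCS1. Of all probes, 39.1% differed there, so the member count is near the share over all probes. Healthy and AD arrays shared no slide or scan day.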

How the results depend on the processing

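The SH2B1 log2 fold change kept its sign in all 51 settings that used the same probe, from -0.77 to -0.36, with an adjusted p from 0.0021 to 0.996, and from -0.45 to -0.36 when single dogs were left out. It passed the adjusted threshold in 2 of them, the dog's channel alone (-0.77) and array weights (-0.40). CISH kept a positive sign in all 51, from 0.034 to 0.23. JAK1 turned negative without the signal filter (-0.025), with 8 arrays well above background required (-0.0033), with normexp and loess (-0.019), in the dog's channel (-0.070), with array weights (-0.097), without slides 3, 5, 7 and 8 (-0.20, -0.041, -0.011 and -0.072), without scan day 5 (-0.11), with the mean of its probes (-0.031) and by probes A_11_P166518, A_11_P176723 and A_11_P212008 (-0.0081, -0.16 and -0.092). JAK2 turned negative without the filter (-0.027), with 8 arrays required (-0.0044), with array weights (-0.090) and without slides 3, 4, 6 and 8 (-0.17, -0.038, -0.020 and -0.0059). When single dogs were left out, JAK1 ran from -0.064 to 0.073 and JAK2 from -0.095 to 0.11. SH2B3 turned negative in the dog's channel (-0.079), SOCS1 there (-0.23), after GC centering (-0.070) and without slide 2 (-0.0089), and SOCS3 after GC centering (-0.057). None of these passed a threshold, and the cause was not tested.

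Probes called at the adjusted threshold numbered 0, against 3 without the filter, 1 with 8 arrays required, 1251 in the dog's channel and 1009 with array weights, and member genes called numbered 0, against 1 in each of the latter settings. At an unadjusted p under 0.05, 1847 probes became 3301 without the filter, 5879 in the dog's channel, 6052 with array weights, 1201 with slide as a random block, 785 and 2778 without slides 3 and 5, and 2807 without scan day 5. In the dog's channel 6 receptors and 5 other brakes passed it, and with array weights 5 STAT targets.

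With the dog number as a replicate block over the 8 numbers both groups share, JAK1 was -0.20, SH2B1 -0.49 (adjusted p = 0.173), 5177 probes passed an unadjusted p of 0.05 and 0 were called. The numbers are only names: same-numbered dogs had correlations of their deviations from -0.359 to 0.425, above 0.1 in 4 of 8, and 3 of the 8 correlated best with their own number.

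Member pairs that passed in AD dogs numbered 7, against 7 and 0 on scan days 4 and 5 alone (6 dogs each), 3 with normexp and loess, 2 in the dog's channel, 3 with the mean of all probes and 2 with GC centering. The 7 of scan day 4 are not the same 7. JAK1 with SOCS1, SOCS3 and CISH did not pass there (adjusted permutation p = 0.180 for each). SH2B1 had r of -0.93, -0.94 and -0.98 with SOCS1, SOCS3 and CISH on scan day 4, and -0.55, -0.33 and -0.61 on scan day 5. In healthy dogs the 1 pair became 0 with slide means removed, without the 2 farthest dogs, with normexp and loess, with the mean of all probes and by the other SH2B3 probe, and with GC centering 1 passed, a different one, SH2B1 with SOCS1. In the dog's channel 1 healthy pair passed too, and it was not SH2B1 with SH2B3 (r = 0.801, exact permutation, adjusted p = 0.0808). Probe pairs of 1 gene that passed in AD dogs numbered 7, against 4 with slide means removed, 0 and 1 on scan days 4 and 5 alone, 4 without scan day 5, 3 without the 2 farthest dogs and 4 with normexp and loess, and in healthy dogs 3 against 0 without the 2 farthest and 1 with GC centering. The r of JAK1 and SOCS1 turned to 0.271 with GC centering, that of JAK2 and SH2B3 to 0.0027 by the other SH2B3 probe, an alternative chosen after seeing the data, and that of JAK1 probes A_11_P176723 and A_11_P166518 to -0.0609 on scan day 5 alone.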
